A study of Mus with 6 samples.

Results

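The haem synthesis enzymes are the proteins that build haem from glycine and succinyl-CoA, and they are described here through 8 genes, Alas1, Alas2, Alad, Uros, Urod, Cpox, Ppox and Fech, taken in pathway order. All probes that the platform annotation gives to these symbols were kept, which made 17 of the 45281 probes of the array and 8 of its 19057 named genes. Of the 17 probes, 15 are annotated to a RefSeq mRNA and 2, of Cpox and of Fech, to a cDNA clone.

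Expression was measured on 6 Illumina bead arrays, 3 of wild-type (WT) and 3 of Klf4-deficient leukaemia stem cells (LSC). All 6 samples were GFP+ lineage- Sca-1+ c-Kit+ (LSK) bone marrow cells of C57BL/6 mice whose chronic myeloid leukaemia (CML) was induced by BCR-ABL p210, sorted 14 days after transplantation. BCR-ABL p210 is thus common to both groups, and Klf4, which encodes a zinc finger transcription factor, is what differs. How Klf4 was removed, and whether a sample was 1 mouse or a pool, is not given in the sources used here, so the p-values cover the spread among these arrays only, and that spread may be technical.

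Haem is made partly in the mitochondrion and partly in the cytosol. The 5-aminolevulinate synthases, ALAS1 in most cells and ALAS2 in erythroid cells, carry out the committed step, and haem itself represses ALAS1. Most haem of the bone marrow goes into haemoglobin, while every cell needs some for cytochromes and catalase, and granulocyte precursors use it for myeloperoxidase.

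The deposited values are background-subtracted intensities on a linear scale and can be negative. Between 7082 and 7214 probes per array lay above an intensity of 32, which served as the floor: values under 32 were set to 32 before the log2 was taken, and differences are Klf4-deficient minus WT on that scale. WT replicate 3 stood apart, with Pearson correlations of 0.29 to 0.30 with the other arrays across the probes tested, against 0.66 to 0.72 among the others, so results are also given without it. Klf4 exceeded the floor in 1 value of its 3 probes on the 6 arrays, 51.9 in WT replicate 2, so these arrays gave no check of the genotype labels. Of the genes of the sort gate, the brightest Kit probe was over the floor in 1 WT and in 2 Klf4-deficient samples. On the other Kit probes the values over it were 258.5 in WT replicate 2, 67.6 in Klf4-deficient replicate 1 and 35.4 in WT replicate 3. Ly6a, which encodes Sca-1, had 0 named probes and was not analysed here. In these bulk samples, fewer cells of a type and less RNA per cell cannot be told apart.

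On the floored values the groups separated for 4 of the enzyme probes, in both directions. Alas2, and 1 probe of Cpox, read higher on all 3 Klf4-deficient arrays than on any WT array, while Alad and Urod read lower. None of these differences passed the test across all probes. Of the 17 probes, 13 exceeded 32 on at least 1 array and were tested, and 0 had an adjusted p under 0.05 in limma, against 0 of 18270 probes tested (0%). At an unadjusted p under 0.05 there were 3 of the 13, against 371 of all probes tested, or 2.03%. The groups did not overlap for 4 of the 13, against 564 of all probes tested, or 3.09%. They were higher in Klf4-deficient arrays for 2, against 2.13% of all probes, and lower for 2, against 0.958%. A probe such as that of Alas2 entered the test only through the group in which it was high, so these shares are a description.

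**Figure D1:**
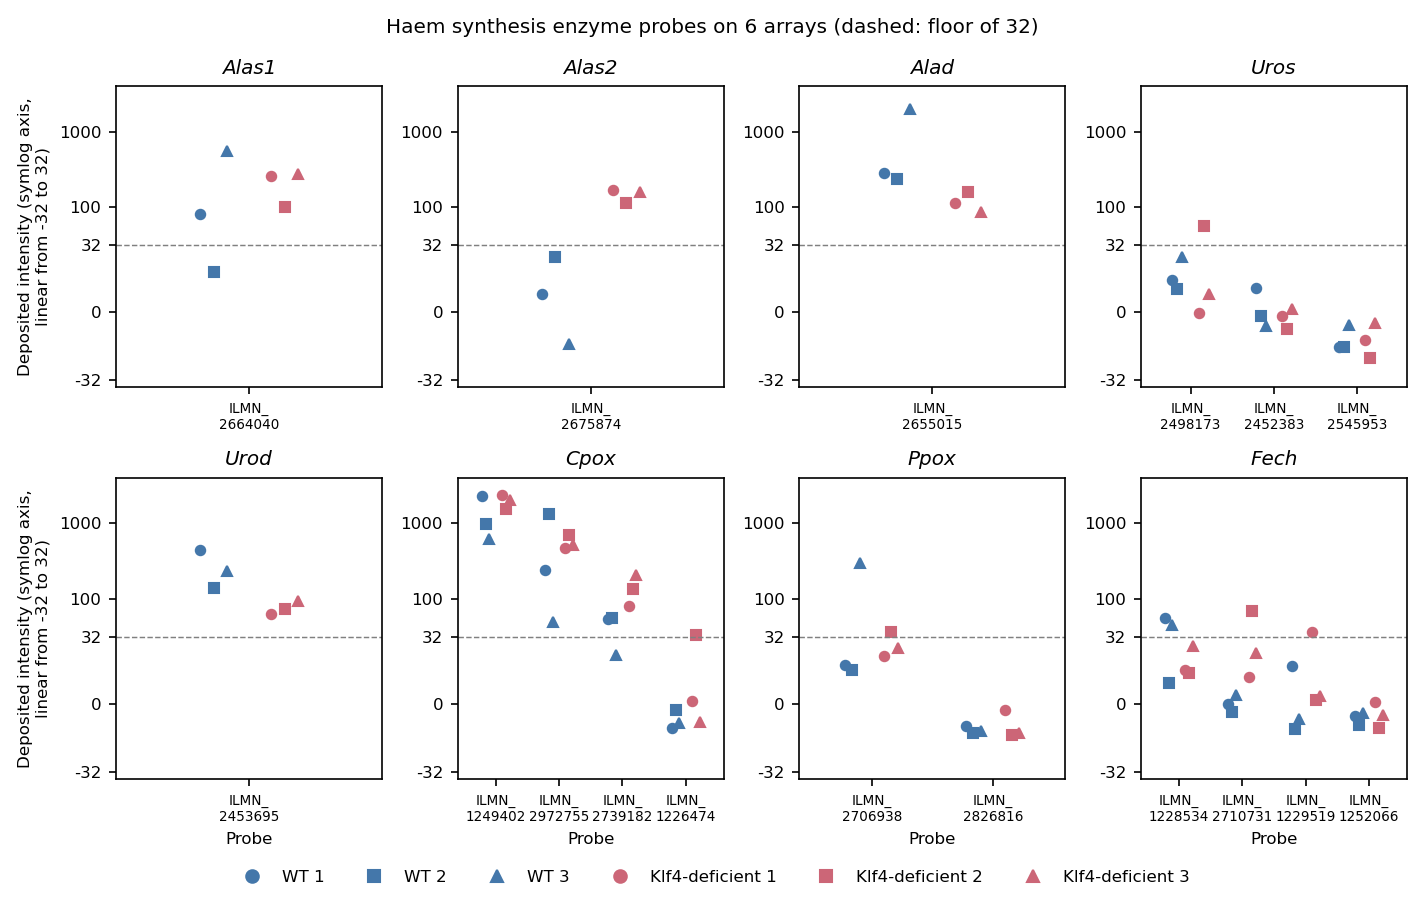
Deposited intensity (symlog axis, linear between -32 and 32) of each of the 17 probes of the 8 enzymes, 1 point per array, with WT in blue, Klf4-deficient in red and the replicate number as the marker shape. Alas2 lies below the dashed floor of 32 on every WT array and between 114.1 and 172 on the Klf4-deficient arrays, while WT replicate 3 is the highest array for Alas1, Alad and the brighter Ppox probe.

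Alas2, the erythroid 5-aminolevulinate synthase, read 172, 114.1 and 160.7 on the Klf4-deficient arrays against 8.8, 26.1 and -15 on the WT arrays (probe ILMN_2675874). Every WT array was thus below the floor and every Klf4-deficient array above it, with a ratio of 1.51 between the highest and lowest Klf4-deficient value. The difference was at least 4.58-fold, or 2.20 ± 0.22 (log2, SE, n = 3 per group, 95% interval 1.64 to 2.75). It did not pass the limma test over all probes (unadjusted p = 0.00013, adjusted p = 0.595). Since the WT values at the floor have no spread, this SE is too small. The exact two-sided permutation test gave p = 0.1, the smallest that 3 against 3 allows. The same arrangement, all WT arrays at the floor and all Klf4-deficient arrays above it, was found for 105 probes tested, or 0.575%, and the opposite one for 59, or 0.323%. Without WT replicate 3 the Alas2 difference stayed at 2.20 ± 0.27, because that array was at the floor with the other WT arrays.

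Alas1, the housekeeping form of the same enzyme, read 256.9, 102.4 and 272.8 on the Klf4-deficient arrays against 81.2, 19.2 and 562.3 on the WT arrays (probe ILMN_2664040). The Klf4-deficient values all lay above WT replicates 1 and 2 and below WT replicate 3. The difference of 0.77 ± 1.15 (log2, SE, 95% interval -2.15 to 3.68, limma adjusted p = 0.756) was smaller than its error. Without WT replicate 3 it was 1.92 ± 0.67, with an unadjusted p of 0.043 and an adjusted p of 0.836 in limma, and without WT replicate 2 it was -0.15. The direction for Alas1 therefore depends on which WT array is included. That for Alas2 was the same under every alternative run. With every WT array below every Klf4-deficient array, leaving out an array or moving the floor could not reverse it.

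Alad, the cytosolic enzyme that joins a pair of 5-aminolevulinate molecules into porphobilinogen, read 115.1, 162.2 and 86.2 on the Klf4-deficient arrays against 287.5, 239.9 and 1996.1 on the WT arrays (probe ILMN_2655015). All 6 arrays were above the floor and the groups did not overlap. The difference of -2.14 ± 0.90 (log2, SE, 95% interval -4.42 to 0.14) corresponds to 4.41-fold lower values in Klf4-deficient arrays and did not pass the test (limma unadjusted p = 0.061, adjusted p = 0.715, exact permutation p = 0.1). WT replicate 3 carried much of its size. Without that array the difference was -1.16 ± 0.35, or 2.24-fold lower, with a narrower 95% interval of -2.11 to -0.22 (limma unadjusted p = 0.026, adjusted p = 0.836).

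Uros closes the porphyrin ring, and its 3 probes gave almost no signal. Of their 18 values, 1 exceeded the floor, 57.2 in Klf4-deficient replicate 2 on probe ILMN_2498173. The other arrays read between -0.5 and 26.5 on that probe, and the remaining Uros probes stayed at or below 11.5. A difference in Uros was not detectable at this signal (0.28 ± 0.29 log2, SE, limma adjusted p = 0.715).

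Urod, which removes carboxyl groups from the side chains of uroporphyrinogen, read 63.4, 74.9 and 94.2 on the Klf4-deficient arrays against 452.8, 140.3 and 235.6 on the WT arrays (probe ILMN_2453695). The highest Klf4-deficient value lay below the lowest WT value. Here WT replicate 1 and not WT replicate 3 was the highest array. The difference of -1.69 ± 0.48 (log2, SE, 95% interval -2.89 to -0.48), or 3.22-fold lower, did not pass the test (limma unadjusted p = 0.015, adjusted p = 0.715, exact permutation p = 0.1). It was -1.72 ± 0.59 without WT replicate 3 and lay between -2.09 and -1.25 over all alternatives.

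Cpox, the oxidase of the mitochondrial intermembrane space that makes protoporphyrinogen, had 4 probes, which did not give 1 pattern. On ILMN_1249402 the Klf4-deficient arrays read 2394.6, 1573.5 and 2014.8 and the WT arrays 2279.4, 980.4 and 624.4. WT replicate 1 lay within the Klf4-deficient range, and the difference was 0.81 ± 0.52 (log2, SE, 95% interval -0.52 to 2.15). On ILMN_2972755 the values were 481.9, 706.3 and 517 against 244.7, 1325.8 and 50.1, so the WT arrays spanned a 26.5-fold range around Klf4-deficient arrays that lay within 1.47-fold of each other. That difference of 1.15 ± 1.21 turned to -0.02 ± 0.80 without WT replicate 3. ILMN_2739182 was the Cpox probe on which the groups did not overlap, with 81.1, 136.8 and 211 against 54.2, 57 and 23.2. Its difference of 1.52 ± 0.44 (log2, SE, 95% interval 0.39 to 2.65), or 2.87-fold higher, did not pass the test (limma unadjusted p = 0.018, adjusted p = 0.715, exact permutation p = 0.1) and was 1.26 ± 0.47 without WT replicate 3. The probe annotated to a cDNA clone, ILMN_1226474, exceeded the floor once, at 33.4 in Klf4-deficient replicate 2.

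Ppox, which oxidises protoporphyrinogen at the inner mitochondrial membrane, was above the floor on 1 array of each group, at 303.7 in WT replicate 3 and 37.3 in Klf4-deficient replicate 2 (probe ILMN_2706938). The remaining 4 arrays read between 16.2 and 26.7. The difference of -1.01 ± 0.96 (log2, SE) rested on WT replicate 3 and became 0.07 ± 0.20 without it. The other Ppox probe lay below 0 on all 6 arrays.

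Fech, ferrochelatase, inserts the iron, and its 4 probes were dim. ILMN_1228534 read 56.8, 10 and 46 on the WT arrays and 16.4, 14.6 and 27.8 on the Klf4-deficient arrays, all of which were at the floor. The difference of -0.45 ± 0.26 (log2, SE, 95% interval -1.11 to 0.20) is only a limit. ILMN_2710731 pointed the other way, with 12.7, 70.5 and 24.1 on the Klf4-deficient arrays against -0.1, -3.6 and 4.6 (0.38 ± 0.36). ILMN_1229519 exceeded the floor only in Klf4-deficient replicate 1, at 36.6, and ILMN_1252066 on no array. None of the 3 tested Fech probes passed the test, with a limma adjusted p of 0.715 for ILMN_1228534 and ILMN_2710731 and 0.846 for ILMN_1229519.

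**Figure D2:**
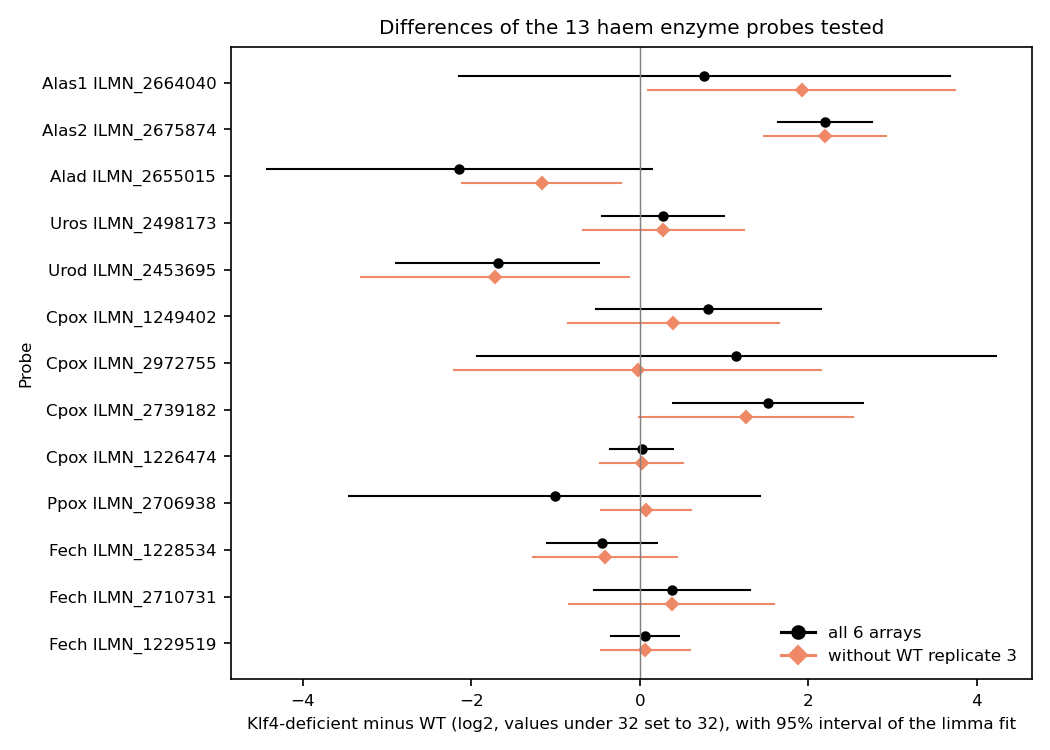
Klf4-deficient minus WT difference (log2, values under 32 set to 32) of the 13 enzyme probes tested, with the 95% interval of the limma fit, from all 6 arrays (black) and without WT replicate 3 (orange). Alas2 at 2.20 and Urod at -1.69 hardly move without that array, Alad goes from -2.14 to -1.16 and Alas1 from 0.77 to 1.92.

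Without WT replicate 3, the groups did not overlap for 5 of the 13 probes, those of Alas1, Alas2 and Cpox (ILMN_2739182) with higher and those of Alad and Urod with lower Klf4-deficient values. Among the 14950 probes then tested the share was 8.47%, with 3.36% higher and 5.1% lower. Again 0 of the 13 were called, against 0% of all probes, and 4 reached an unadjusted p under 0.05, where the share of all probes was 3.56%. The SD within a group was larger in WT for 7 of the 13 probes and larger in Klf4-deficient arrays for 6. A group wholly at the floor has an SD of 0, as WT had for Alas2, Uros and some Cpox and Fech probes. These counts therefore partly reflect the floor. The median SD of the 13 probes was 0.46 (log2) among WT and 0.30 among Klf4-deficient arrays, beside 0.64 and 0.31 over all probes tested, with WT replicate 3 included. Without that array the WT SD was the larger for 5 probes and the smaller for 8, but it then came from fewer arrays than the Klf4-deficient SD.

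The erythroid genes were then set beside Alas2, since that enzyme marks erythroid cells. Although the sort excluded lineage markers, all 12 named globin probes exceeded the floor on 5 arrays and 7 of them in WT replicate 3. On its brightest probe Hbb-bs, a beta globin, read 3815.3, 4913.4 and 4552.9 on the Klf4-deficient arrays against 2511.1, 5176.6 and 1080 on the WT arrays. The highest value on that probe was thus in WT replicate 2. On the other Hbb-bs probes the groups also overlapped, and WT replicate 3 read 937.4, 14.9, 4.8, 1124.4 and -3.5. Probes of near-identical globin genes may share signal. Of 18 erythroid markers, 13 had a named probe and 11 were tested, with 6 higher and 5 lower in Klf4-deficient arrays, 0 called and a median difference of 0.29 (log2; 0.44 without WT replicate 3). Over all probes tested, 45.8% were higher and the median was -0.05 (0.06 without WT replicate 3). Each median without that array leaves out genes above the floor on it alone, here Epb42 and Add2, which were lower.

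The summed intensity of the 13 erythroid markers, with values under 32 counted as 32, ran from 5932.8 to 12153.1 in WT and from 10171.9 to 12306 in Klf4-deficient arrays. WT replicate 2, with 12153.1, reached the level of the Klf4-deficient arrays, and its Alas2 value was 26.1. Much of that sum was globin, with Hbb-bs at 5176.6, Hbb-bt at 2014.8 and Hba-a1 at 1996.1, so it mainly follows probes that may share signal. Car1, carbonic anhydrase of red cells, read 1301.1, 793.8 and 1006.2 on the Klf4-deficient arrays against 624.1, 738.3 and 16.5 (2.05 ± 1.31 log2, SE, 0.58 without WT replicate 3). Hbb-bt, another beta globin, differed by 1.02 ± 0.53 on the probe with the highest mean log2 value, and both genes had an adjusted p of 0.715 in limma. Its probe ILMN_1236718 read 2971.1, 3143.6 and 3332.5 against 906, 2870.3 and 7.6 without overlap, and on its other 2 probes the groups overlapped. The erythropoietin receptor gene Epor and the Rh-associated glycoprotein gene Rhag did not exceed the floor on any array. The part of erythroid cells in the Alas2 difference was not tested beyond these values.

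**Figure D3:**
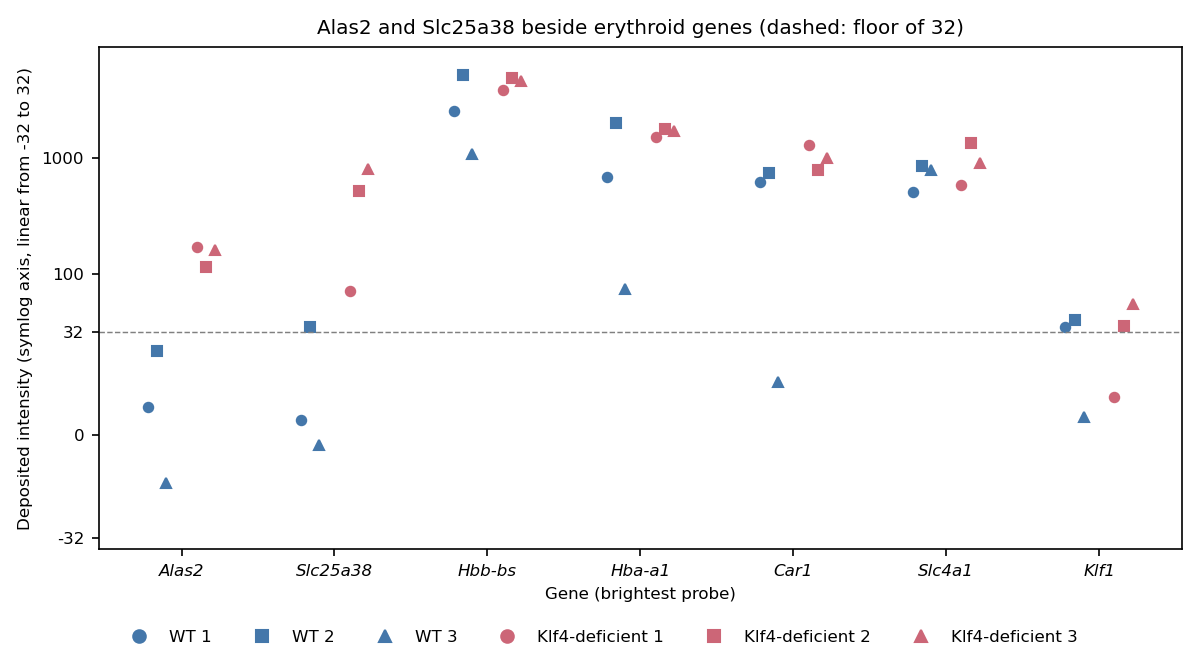
Deposited intensity (symlog axis, linear between -32 and 32) of Alas2, its pathway neighbour Slc25a38 and 5 erythroid genes on the 6 arrays, brightest probe of each, the erythroid genes being chosen after their values were seen. The erythroid genes shown all had positive differences. The 5 tested erythroid markers with negative differences, Epb42, Sptb, Add2, Car2 and Ermap, are not shown. Hbb-bs in WT replicate 2 (5176.6) is above all Klf4-deficient arrays, and Alas2 is below the floor on every WT array.

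Erythroid transcription factors did not separate the groups. Of 8 such genes 7 were tested, with 5 higher and 2 lower, 0 called and a median of 0.16 (0.11 without WT replicate 3). Gata1, the factor that drives ALAS2 in red cell precursors, read 10.5, 5.2 and 77.7 on the Klf4-deficient arrays against 20, 49.8 and 110.4 on its brighter probe, and its other probe was at the floor on all Klf4-deficient arrays. Klf1, the erythroid relative of Klf4, read 11.7, 36.1 and 55.5 against 35.4, 40.6 and 5.6, so the groups overlapped. Ldb1 and Gfi1b, a cofactor and a transcriptional repressor that act within the erythroid programme, differed by 0.84 ± 0.59 and 0.83 ± 0.63 (log2, SE, limma adjusted p = 0.715 each). The second Gfi1b probe stayed below the floor on all arrays.

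Of the 13 enzyme probes tested, WT replicate 3 was the highest array for 3, of Alas1, Alad and Ppox. It was the lowest for 4, of Alas2 and Cpox. The share of all probes that were highest or lowest there was not computed. That array was also the highest for 4 of 5 tested monocyte and macrophage markers, such as Csf1r at 274.3. Their summed intensity, over 6 genes with a probe, was 697.8 on that array and 192 to 274.4 on the rest. Cd14 and Itgam were tested only because they exceeded the floor there, so being highest there was given for them. Of all 18270 probes tested, 14950 exceeded the floor on some other array. The Lyz2 probe counted was the brightest, and its other probes read 12.3 and -9.4 in WT replicate 3. Neutrophil markers were mixed there, with 2 of 8 highest, Mpo and Ltf, and 4 lower than on either other WT array. Their sum of 7674.5 in WT replicate 3, against 2270.7 to 3959.3 on the rest, was almost all 1 probe of Mpo, the myeloperoxidase gene, at 7153.2, while another Mpo probe read 13.6 there against 697.7 and 489.5 in the other WT arrays. Without Mpo, the sum of the remaining 8 genes was lowest in WT replicate 3, at 521.3 against 670.6 to 1847. Of the neutrophil markers 8 were tested, 4 higher and 4 lower (median 0.06), and of the monocyte markers 5, all lower (median -0.47), with 0 called. Without WT replicate 3, Cd14 and Itgam dropped out of the monocyte list and Csf1r turned to 0.09. The median of the monocyte markers left was -0.37. The part of myeloid cells in the Alas1, Alad and Ppox values of that array was not tested.

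The remaining marker lists had 0 called genes as well. Of 6 mast cell and basophil markers tested 5 were higher (median 0.40, -0.04 without WT replicate 3), of 3 megakaryocyte markers 1 (median -0.87, -0.02 without it), and of 7 T and NK cell markers 4 (median 0.23, 0.60 without it). The value of 0.60 leaves out Cd3d, Cd3e and Cd4, which were lower and above the floor only in WT replicate 3. Both B cell markers tested were higher (median 0.17, 0.30 without WT replicate 3), all 4 dendritic cell markers tested were lower (median -0.56, -1.16 without it), and of 6 stem and progenitor markers 2 were higher (median -0.09, 0.31 without it). In these lists Thy1 and H2-Ab1 separated the groups. Thy1, a membrane glycoprotein found on T cells, had the same arrangement as Alas2, with 113, 187.2 and 146 on the Klf4-deficient arrays against 24.4, 26 and -7, at least 4.55-fold higher (limma unadjusted p = 0.0002, adjusted p = 0.595), and on its second probe exceeded the floor once, at 34.6 in Klf4-deficient replicate 3. The class II gene H2-Ab1 read -4.3, 43.2 and 1.5 against 103, 417 and 1167.1 on its brightest probe, 10.4-fold lower (limma adjusted p = 0.715) and 5.86-fold without WT replicate 3, and its other probes also had negative differences. The part of such cells in the enzyme differences was not tested.

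The genes that serve haem synthesis without being among the 8 enzymes were led by Slc25a38, the mitochondrial carrier that brings in glycine for the ALAS step. Its brightest probe, ILMN_2946905, read 72, 518.6 and 804.4 on the Klf4-deficient arrays against 4.5, 35.1 and -3.1 on the WT arrays. The groups did not overlap, and the difference of 3.24 ± 0.95 (log2, SE, 95% interval 0.83 to 5.64) did not pass the test (limma unadjusted p = 0.018, adjusted p = 0.715, exact permutation p = 0.1). It was 3.21 without WT replicate 3. A second probe, ILMN_2946901, exceeded the floor once, at 37.2 in Klf4-deficient replicate 2, and the last was below it throughout. Of the 13 genes of this list 10 were tested, with 3 higher and 7 lower and a median of -0.13 (-0.32 without WT replicate 3). Abcb10, a mitochondrial transporter of red cell precursors, was above the floor only in WT replicate 3, at 166.1, and on its second probe nowhere.

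The substrates and the cofactor of ALAS are glycine, succinyl-CoA and pyridoxal phosphate. Plpbp, which binds pyridoxal phosphate, read 163.8, 113.9 and 99.4 on the Klf4-deficient arrays against 7.5, -0.5 and -4.4 on probe ILMN_2472775, at least 3.84-fold higher, while its other 3 probes stayed below the floor on all arrays (limma adjusted p = 0.624). Shmt2, the mitochondrial enzyme that interconverts serine and glycine, read 11.9, 16 and 12.7 against 82.4, 41.3 and 64.8, at least 1.89-fold lower (adjusted p = 0.715), and on its second probe 118.5 in Klf4-deficient replicate 3 was the 1 value above the floor. Of 10 supply genes tested 7 were higher and 3 lower, with a median of 0.18 with and without WT replicate 3.

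Iron-sulfur clusters are needed by ferrochelatase and by the iron sensor ACO1. Fdx2, a mitochondrial ferredoxin of cluster synthesis, read 207, 177.8 and 113.4 on the Klf4-deficient arrays against 1.7, 6.1 and -0.3, at least 5.03-fold higher on its 1 probe (limma adjusted p = 0.595). Isca1, a cluster assembly protein, differed by 1.88 ± 0.92 on its brightest probe, with 762.1, 319.7 and 176.6 against 115.4, 234.2 and -1.8. Its other probe was above the floor only in WT replicate 3, at 1488.5. Of 12 assembly genes tested 9 were higher and 3 lower (median 0.54, 0.37 without WT replicate 3).

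Iron uptake and storage genes divided evenly, 7 higher and 7 lower of 14 tested (median 0.01, 0.08 without WT replicate 3). Ireb2, an iron sensor that binds mRNA, differed by -1.02 ± 0.54 and Pcbp1, an iron chaperone, by 0.98 ± 0.55 (log2, SE, limma adjusted p = 0.715 each), and the second Ireb2 probe was below the floor throughout. Of 11 genes of haem breakdown, export and import 6 were higher and 5 lower (median 0.18, -0.01 without WT replicate 3). Cd163, the macrophage receptor for haemoglobin bound to haptoglobin, read -17.1, 776.8 and 1305.5 against 280.8, 15.8 and 4.7, and Slc48a1, a haem transporter of lysosomes, -7.9, 112.8 and 124.9 against 0.5, 76.3 and -1.1. Both were thus low in Klf4-deficient replicate 1. The second Cd163 probe was below the floor on all arrays. Hmox1, the inducible enzyme that degrades haem, read 44.6, 182.6 and 105.6 against 211.7, 43.3 and -9.9, and the groups overlapped.

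Proteins that carry haem gave 5 higher and 5 lower of 10 tested (median 0.04, -0.17 without WT replicate 3). Cycs, cytochrome c, read 208.2, 73.1 and 233.8 on the Klf4-deficient arrays against 47.4, 52.8 and 48.9 on its brightest probe (1.62 ± 0.49 log2, SE), whereas its other probes differed by less than their errors. Cyb5a, cytochrome b5, read 29.3, 47.3 and 31.1 against 79.8, 112.7 and 51.3 (-1.08 ± 0.36), and its second probe overlapped between groups. Neither passed the test (limma adjusted p = 0.715 each), and 0 genes of the lists were called, against 0% of all probes.

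**Figure D4:**
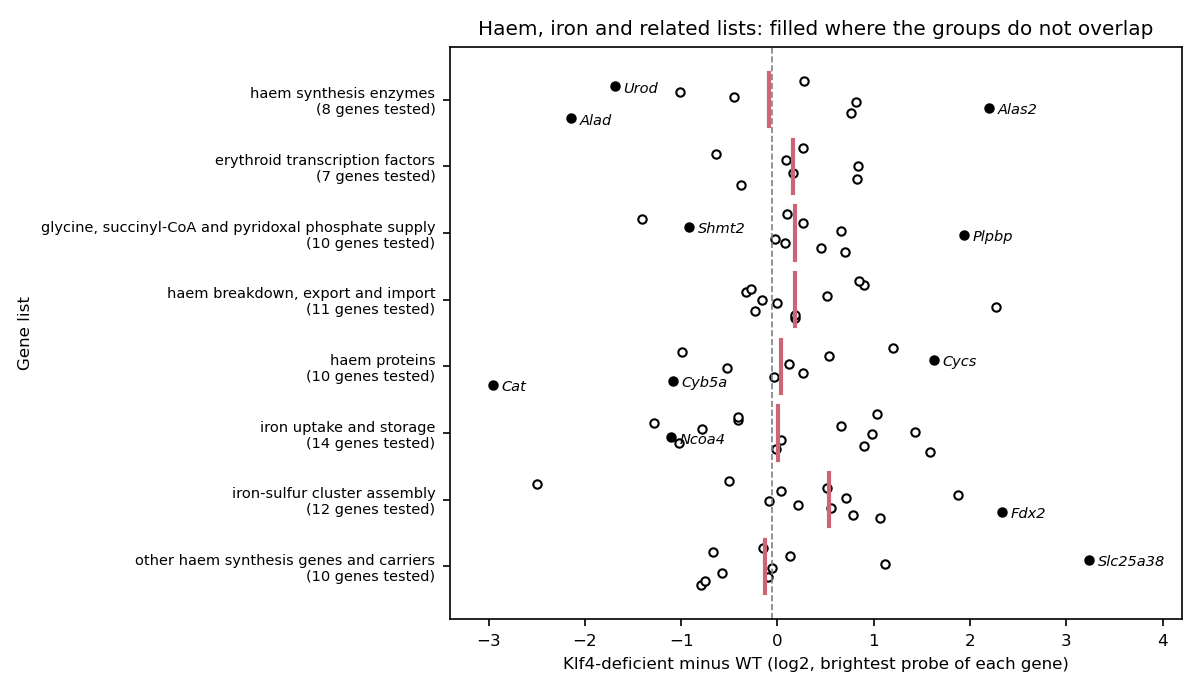
Klf4-deficient minus WT difference (log2) of the brightest probe of each gene tested in the haem, iron and related lists, with the list median as a red bar and the median of all probes tested, -0.05, as a dashed line. Filled points are genes whose groups do not overlap, with Alas2, Slc25a38, Fdx2, Plpbp and Cycs to the right and Alad, Urod, Cat, Cyb5a, Ncoa4 and Shmt2 to the left.

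The profiles most like those of the ALAS genes were sought by the root mean square distance between mean-centred log2 values over the 6 arrays. Nearest to Alas2 were Uhrf1bp1, Rnf181 and Polr3k, at distances of 0.15, 0.19 and 0.19, and 44 probes lay nearer than 0.5. Alas1 had fewer close profiles, with Cpne2, Hs6st2 and Ptpn2 at 0.41, 0.41 and 0.45 and 5 probes nearer than 0.5. The values are floored, so Alas2 is flat over the WT arrays, as are all 105 probes of its arrangement. Alas1 spans a 17.57-fold range there, and the counts of 44 and 5 are not comparable. For Hs6st2 the values were 1405.4, 289.3 and 891.4 on the Klf4-deficient arrays and 342.4, 169.8 and 1492.7 on the WT arrays, high in WT replicate 3 and low in WT replicate 2 as for Alas1.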

How the data were processed

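The deposited values are linear intensities, 1 per probe and array. Per the labels' protocols, a service laboratory hybridised and scanned the arrays. The submitters' processing notes name BeadStudio. Its version and settings were not stated in the sources used here. At 95.5% of the ranks the 6 columns agreed within 5% or 0.15, so they were taken as being on 1 scale, which makes arrays equal in total brightness. No further normalization was applied.

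The deposited intensities were floored at 32 and log2 values fitted per probe with limma 3.58.1 (lmFit, eBayes, no block) in R 4.3.3, with the package data.table (1.17.8), over the 18270 probes above 32 on at least 1 array, with Benjamini-Hochberg adjustment and a threshold of 0.05. Symbols came from the platform annotation, updated by Entrez number (34885 probes with 1 symbol, 18 with several, 10378 not listed). List genes were read from their brightest probe. Other probes are described for the members and for some other named genes, so a gene given with 1 probe may have others that disagree. A group wholly at the floor gives a fold as "at least".

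The members and the 17 lists (8 pathway, 9 marker) were chosen with earlier results of these data known. Named were all members, up to 2 genes of the smallest p per list (marker lists other than erythroid are given mainly as counts, with some genes named), a set of genes by value, and the 3 nearest profiles to Alas1 and Alas2. Motifs, probe sequences and positions were not analysed here. In data simulated for this comparison over 18270 probes, 6.5% of 200 probes changed by 3 (log2) were called, and 0% of those changed by 1 or 2. With the change of 3, 2 unchanged probes were also called. Changed probes had a mean log2 value above that of an intensity of 64. Each probe had 1 SD for both groups, unlike a probe with a group wholly at the floor. Alternatives were the floor, an offset, filters, quantile normalization, the brightest probe, trended eBayes, a replicate block and each array left out.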

Additional observations from a re-analysis of the deposited data

How the results depend on the processing

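Over 15 alternatives, 0 enzyme probes and 0 other list genes were called. Of 176 refitted differences of the 13 enzyme probes, 4 changed sign: Uros to -0.011 with an offset of 32, Alas1 to -0.15 without WT replicate 2, and Ppox to 0.074 and Cpox ILMN_2972755 to -0.024 without WT replicate 3. With 1 array left out, Alas1 ran from -0.15 to 1.92, Ppox from -1.55 to 0.074 and that Cpox probe from -0.024 to 2.34. Alas2 lay between 1.20 (floor of 64) and 2.96 (floor of 16), Urod between -2.09 and -1.25 and Alad between -2.69 and -1.16. The unadjusted limma p of Alas2 ran from 0.00013 to 0.051, the highest with trend and robust eBayes, and its adjusted p from 0.345 to 0.921. With all 45281 probes tested, 1 probe was called in place of 0, and it belonged to no enzyme.

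The replicate block called 0 probes, with 362 at an unadjusted p under 0.05 against 371 without it, and the Alas2 adjusted p was 0.749. Deviations of same-numbered samples correlated at 0.032, 0.040 and 0.040 and those of other pairs at -0.029 to -0.0076, so each sample was nearest its own number, though all were small. The main fit had no block, and whether same-numbered samples belong together was not settled by these values. Probes at an unadjusted p under 0.05 numbered 449 to 809 when 1 array was left out. Of these, 180 were higher and 352 lower without WT replicate 3, against 266 and 105 with all arrays. Signal near the floor limits Uros, Ppox and Fech, where only 1 or 2 arrays of a group carried a value.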

Other observations

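Catalase also separated the groups and was singled out after its values were seen. Cat, the haem enzyme that breaks down hydrogen peroxide, read 17, 44.8 and 31.2 on the Klf4-deficient arrays against 85.2, 129.3 and 1937.4 on the WT arrays, a log2 difference of -2.95 ± 1.25 (SE, 3 arrays a group, adjusted p = 0.715 in limma) that was -1.55 without WT replicate 3. On its second probe the values were 17.9, 31.3 and 71 against 42.6, 3.7 and 92.1, and the groups overlapped. On the brighter Cat probe and on that of Alad, WT replicate 3 was the highest array and the other WT arrays still lay above every Klf4-deficient array.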
